A study of Mus musculus with 8 samples.

Results

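Antisense oligonucleotides reach the liver through receptors on its cells and lower their target through nucleases inside them. The genes described here are 8 uptake receptors and 2 nucleases: the stabilins Stab1 and Stab2, the asialoglycoprotein receptor subunits Asgr1 and Asgr2, the scavenger and mannose receptors Msr1 and Mrc1, the lipoprotein receptors Lrp1 and Scarb1, the RNA-cleaving enzyme gene Rnaseh1 and the exonuclease gene Xrn2. They were chosen by the gene symbol in the array table, and 14 of its 45281 probes carry these 10 symbols. Of the 10 genes, 8 were bright enough to test, with 10 probes among them. Msr1, with 1 probe, and Xrn2, with 3, were not above background on any array.

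Livers came from male C57BL/6J mice, all listed at 25 weeks of age and all fed from 6 weeks of age on a diet with 60% of calories from fat. A group of 4 mice received an antisense oligonucleotide (ASO), a chemically stabilised strand complementary to a chosen RNA, against Mogat1, the gene of an enzyme that makes diacylglycerol. The other 4 mice received a scrambled control ASO. After 14 weeks on the diet each mouse had 3 weeks of treatment with 2 intraperitoneal doses of 25 mg/kg per week, so the controls carried an oligonucleotide at the same dose and no liver without one is in the comparison. RNA of each whole liver was read on 1 Illumina bead array, which gives a fluorescence intensity per probe.

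As background, a phosphorothioate ASO circulates bound to plasma proteins and is taken into liver cells by endocytosis. Stabilin 1 and stabilin 2 are large scavenger receptors of the sinusoidal endothelium that bind hyaluronan and other polyanions, oligonucleotides among them. The asialoglycoprotein receptor is the galactose-binding lectin of hepatocytes, and ASOs carrying N-acetylgalactosamine are made to enter through it. After the strand leaves the endosome and pairs with its target, RNase H1 cuts the RNA of the hybrid, and exonucleases such as XRN2 in the nucleus and the exosome degrade the fragments.

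Levels below are background-corrected, quantile-normalized log2 intensities, on which 1 unit is a doubling. A probe counted as detected where its deposited detection p-value, a measure against the negative controls, was under 0.05. Differences are Mogat1 ASO minus control ASO, with the standard error (SE) of a fit by limma over all 16487 probes detected on at least 4 of the 8 arrays. Adjusted p-values are Benjamini-Hochberg values over all those probes, and a gene is called where its value is under 0.05. A gene with several tested probes is represented by the brightest. Probes differ in how well they bind, so levels are compared between livers and never between genes.

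Stab2, the stabilin that clears hyaluronan from blood, was lower in Mogat1 ASO livers. Its level was 9.32, 9.17, 9.22 and 9.32 in the 4 Mogat1 ASO livers, against 9.78, 9.83, 9.66 and 10.03 in the 4 control livers. All 4 Mogat1 ASO livers lay below all 4 controls. Stab2 was 1.48-fold lower (log2 difference -0.57, SE 0.10, 95% interval -0.78 to -0.35, n = 4 each, limma adjusted p = 0.00428). It was called under all 19 alternative settings, with differences of -0.62 to -0.50 and adjusted p of 0.00163 to 0.0236. In the non-normalized intensities the probe read 634, 652, 606 and 856 in Mogat1 ASO livers and 890, 1110, 803 and 1216 in controls, where the brightest Mogat1 ASO liver lay above the dimmest control.

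That is 1 of the 8 genes tested, lower, and none was higher. Of all 11686 genes tested, 13.3% were called, 7.14% higher and 6.12% lower in Mogat1 ASO livers, so a single call among 8 is near the background of the array. The groups did not overlap for 1 of the 8 genes, Stab2, against 19.1% of all genes tested. The median log2 difference was 0.029 over the 8 genes and -0.004 over all genes. With the dimmer probe in place of the brighter one for Stab1, 2 of the 8 genes would be called, as described next.

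**Figure D1:**
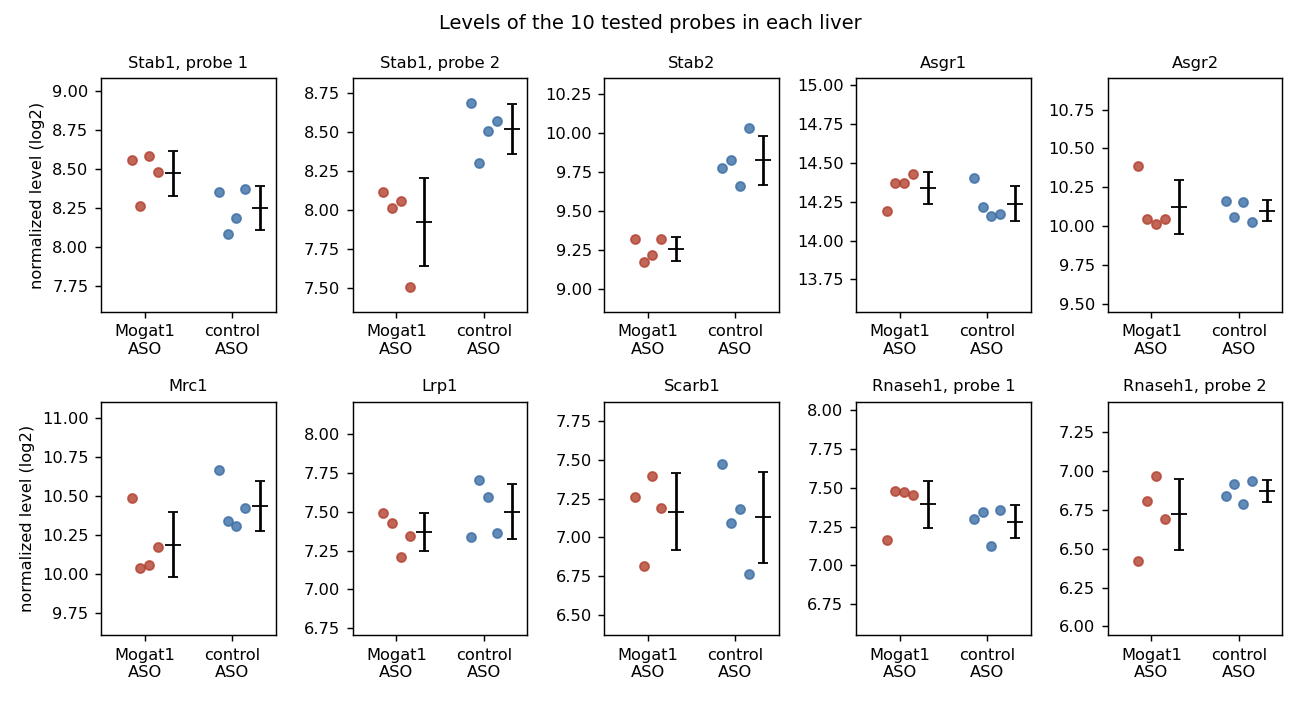
Normalized log2 level of each tested probe (vertical axis, every panel spanning 1.5 log2 units) in the 4 Mogat1 ASO livers (red, left) and the 4 control ASO livers (blue, right), with the mean and SD of each group as black bars. Stab2 and the second probe of Stab1 are the panels in which the groups do not overlap; in all other panels they do.

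The 2 probes for Stab1 did not give the same answer. The brighter, called probe 1 here, read 8.56, 8.26, 8.58 and 8.48 in Mogat1 ASO livers, against 8.35, 8.08, 8.19 and 8.37 in control livers. The groups overlapped, and the difference of 0.22 (SE 0.11, 95% interval -0.020 to 0.46) was not called (adjusted p = 0.218). Probe 2 read 8.11, 8.01, 8.06 and 7.50 in Mogat1 ASO livers and 8.69, 8.30, 8.51 and 8.57 in control livers.

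By probe 2, Stab1 was lower in every Mogat1 ASO liver than in any control, with a difference of -0.60 (SE 0.14, 95% interval -0.91 to -0.28, adjusted p = 0.0217). Leaving out control ASO replicate 3 or 4 ended the call (adjusted p = 0.0575 and 0.0552), and the difference was -0.46 without Mogat1 ASO replicate 4, the lowest array. The mean levels of probe 1 and probe 2 over all arrays, 8.36 and 8.22, were close, so the choice of the representative probe was a narrow one. The mean of both gave -0.19 (SE 0.11, adjusted p = 0.298).

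Within the same array, probe 2 moved by -0.82 relative to probe 1 (SE 0.16), with no overlap between the groups (exact two-sided permutation p = 0.0286, the smallest that 70 assignments of 8 arrays allow). This contrast was chosen after the values were seen. The probes could not be placed on the Stab1 transcript here, so neither direction can be assigned to the gene as a whole. Of 3458 genes with at least 2 tested probes, 721 had a called probe. Of these, 86 (11.9%) also had a probe with the opposite sign, however small its difference. That count is looser than the Stab1 split, so it does not give how often probes part as far as these 2.

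Stab2 moved by -0.79 relative to probe 1 of Stab1 within the same array (SE 0.10, no overlap, exact two-sided permutation p = 0.0286). Over the 2 pairs of related genes that could be compared, the adjusted p was 0.0571 and did not pass. With 2 pairs, a single separated pair cannot go lower. With the mean of both Stab1 probes the relative change was -0.38.

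No endothelial marker fell past the threshold. Of 24 markers listed for sinusoidal and other endothelial cells, 21 were tested, 4 rose and none fell, with a median log2 difference of 0.14. Over all genes tested, 7.14% rose and 6.12% fell. Differences of the endothelial markers not called ran from -0.185 (Ehd3) to 0.37 (Pecam1). Lyve1, a hyaluronan receptor of sinusoidal and lymphatic endothelium, rose 2.43-fold (log2 difference 1.28, SE 0.17, adjusted p = 0.00121). The rises of Egfl7, a secreted endothelial protein (1.35-fold, SE 0.09), the junction protein gene Esam (1.30-fold, SE 0.10) and the guidance receptor gene Robo4 (1.27-fold, SE 0.09) were smaller. The count of 4 was 2 without Mogat1 ASO replicate 3 or 4 or control ASO replicate 2 or 3, 2 with no filter on dim probes, and 1 with median scaling in place of quantile normalization.

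The mean log2 level of the 21 markers was 9.06 to 9.14 in Mogat1 ASO livers and 8.85 to 9.02 in controls, while their summed linear intensity overlapped, at 27710 to 30470 in Mogat1 ASO livers and 26100 to 29570 in controls. Of the list, Bmp2 and Erg were not detected on any array. Stab2 moved by -0.74 relative to this marker mean within the same array (SE 0.07), and all 4 Mogat1 ASO livers lay below all 4 controls (exact two-sided permutation p = 0.0286, adjusted p = 0.0571 over 6 such contrasts chosen after the values were seen). The relative change stayed between -0.77 and -0.63 under 18 alternatives. In RNA of whole liver, fewer cells of a type and less RNA of a gene per cell cannot be told apart from the level of that gene alone.

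Probe 1 of Stab1 moved by 0.053 relative to the same marker mean, with overlapping groups (SE 0.07, exact permutation p = 0.429). With the mean of both Stab1 probes the relative change was -0.35.

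**Figure D2:**
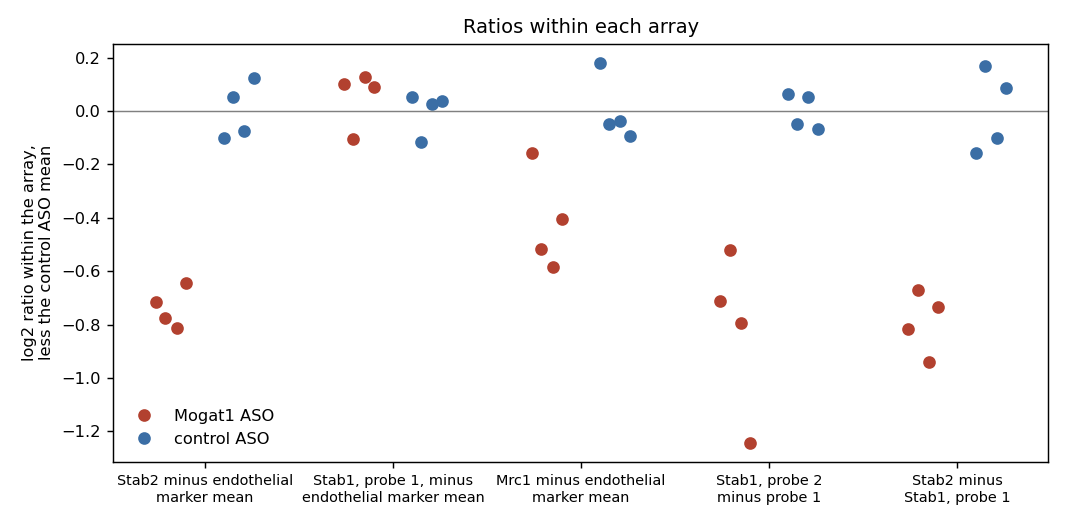
Log2 ratio of 2 quantities within each array (vertical axis), with the mean of the control ASO arrays set to 0, for Mogat1 ASO livers (red, left) and control ASO livers (blue, right). The ratio of Stab2 to the endothelial marker mean is lower in all 4 Mogat1 ASO livers than in any control, the ratio of probe 1 of Stab1 to that mean overlaps between the groups, and the 2 probes of Stab1 part from each other.

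Mrc1, the mannose receptor of sinusoidal endothelium and macrophages, was not called. It read 10.49, 10.04, 10.06 and 10.17 in Mogat1 ASO livers and 10.67, 10.34, 10.31 and 10.43 in control livers. In Mogat1 ASO livers 3 arrays lay below all controls, while replicate 1 lay inside the control range. The log2 difference was -0.25 (SE 0.12, 95% interval -0.51 to 0.016, adjusted p = 0.206). Without Mogat1 ASO replicate 1 it was -0.35 (SE 0.10) and was called (adjusted p = 0.0377).

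Mogat1 ASO replicate 1 differed from its group beyond this gene. On the first principal component (43.8% of the variance) it lay at 8.36, against 23.6 to 29.2 for the other Mogat1 ASO arrays and -25.8 to -16.7 for controls. Relative to the endothelial marker mean of its own array, Mrc1 moved by -0.42 (SE 0.11, no overlap, exact permutation p = 0.0286, adjusted p = 0.0571 over the 6 contrasts). Relative to the macrophage marker mean it moved by -0.51 (SE 0.20, exact permutation p = 0.0571, adjusted p = 0.0857).

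Macrophage markers rose in part. Of 20 markers of Kupffer cells and macrophages, 19 were tested, 7 rose and 1 fell, with a median log2 difference of 0.33. Over all genes tested, 7.14% rose and 6.12% fell. Differences of the macrophage markers not called ran from -0.45 (Timd4) to 0.62 (Marco), with Clec4f at -0.099 and Vsig4 at 0.22. Fcer1g, an Fc receptor subunit (1.67-fold, SE 0.12), C1qa of complement (1.60-fold, SE 0.13) and the lysozyme gene Lyz2 (1.57-fold, SE 0.16) rose, and Cd163, a scavenger receptor for haemoglobin bound to haptoglobin, was 2.02-fold lower (SE 0.20, adjusted p = 0.00774). In place of 7 rises there were 2 with Mogat1 ASO replicate 3 left out, 4 with Mogat1 ASO replicate 4 left out, 3 with control ASO replicate 3 left out and 2 with median scaling. With Mogat1 ASO replicate 4 left out, 2 markers fell.

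The summed intensity of these markers was 23290 to 33340 in Mogat1 ASO livers and 18500 to 22410 in controls, and Cd5l was the marker not detected on any array. Of 16 markers of recruited monocytes and lipid-associated macrophages, 10 were tested. Beside shares of 7.14% higher and 6.12% lower over all genes tested, 4 rose and none fell. These were Ms4a7 (2.22-fold, SE 0.19), Cd63 (1.97-fold, SE 0.27), the lectin gene Lgals3 (1.91-fold, SE 0.18) and Plac8 (1.60-fold, SE 0.15). Their part in the values of Mrc1 was not tested.

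Msr1, the class A scavenger receptor of macrophages, could not be read. Its probe had detection p-values of 0.338 to 0.979 and levels of 4.39 to 4.69 in Mogat1 ASO livers and 4.52 to 4.59 in controls, so no fold is given. A probe at background does not show that the transcript was missing from the liver. Alb, the albumin gene and a defining hepatocyte transcript, was likewise not detected on any array, and neither were Fgb and Tat.

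The asialoglycoprotein receptor genes showed no difference past the threshold. Asgr1, the major subunit, read 14.19, 14.37, 14.37 and 14.43 in Mogat1 ASO livers and 14.40, 14.22, 14.16 and 14.17 in control livers. The groups overlapped through the first replicate of each, and the log2 difference was 0.10 (SE 0.08, 95% interval -0.081 to 0.28, adjusted p = 0.473). The interval holds no fall of more than 0.081 on the log2 scale. Asgr2, the minor subunit, read 10.38, 10.04, 10.02 and 10.05 in Mogat1 ASO livers and 10.16, 10.06, 10.15 and 10.03 in control livers. Its difference was 0.022 (SE 0.10, 95% interval -0.19 to 0.24, adjusted p = 0.911), and -0.065 without Mogat1 ASO replicate 1.

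Between the subunits the change differed by -0.079 for Asgr2 relative to Asgr1 (SE 0.15, exact two-sided permutation p = 0.657, also after adjustment over the 2 pairs). This value rested on single arrays, at -0.21 without Mogat1 ASO replicate 1 (adjusted p = 0.0571) and -0.024 without Mogat1 ASO replicate 4. Over all genes tested, 13.3% were called. Hepatocyte markers set beside the subunits had 17 of 20 tested and none called in either direction, with a median log2 difference of -0.097. Their summed intensity was 474300 to 518500 in Mogat1 ASO livers and 500100 to 541100 in controls. Among the brightest, Trf (transferrin) differed by 0.0079 (SE 0.06) and Apoc3, an apolipoprotein gene, by -0.074 (SE 0.06). Relative to the mean of these markers Asgr1 moved by 0.31 (SE 0.12, exact permutation p = 0.0857) and Asgr2 by 0.23 (SE 0.05, p = 0.0286), with adjusted p = 0.103 and 0.0571 over the 6 contrasts. Without Mogat1 ASO replicate 1, 5 hepatocyte markers were called lower, and 1 was with median scaling.

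Lrp1 and Scarb1 were not called either. Lrp1, a large endocytic receptor of hepatocytes for chylomicron remnants and many other ligands, read 7.49, 7.43, 7.21 and 7.35 in Mogat1 ASO livers and 7.34, 7.70, 7.60 and 7.36 in control livers, with overlap. The difference was -0.13 (SE 0.12, 95% interval -0.40 to 0.13, adjusted p = 0.523), and -0.19 to -0.065 when 1 array was left out. Scarb1, the receptor that takes cholesteryl ester from high-density lipoprotein, read 7.26, 6.81, 7.40 and 7.19 in Mogat1 ASO livers and 7.48, 7.09, 7.18 and 6.77 in control livers.

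The Scarb1 values spread widely within each group, and the difference of 0.036 (SE 0.17) had a 95% interval of -0.33 to 0.41 (adjusted p = 0.915). A further probe that the table lists as Srb1, an older name of Scarb1, was detected on 1 control array and on no Mogat1 ASO array, and was not tested. Of the 8 genes, Scarb1 had the widest interval.

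Rnaseh1, which encodes the enzyme that cuts the RNA paired with an ASO, had 2 tested probes and neither was called. Probe 1, the brighter, read 7.16, 7.48, 7.47 and 7.46 in Mogat1 ASO livers and 7.30, 7.34, 7.12 and 7.36 in control livers. In 3 Mogat1 ASO livers it lay above all controls, and in replicate 1 it lay near the low end of the control range. The difference was 0.11 (SE 0.11, 95% interval -0.14 to 0.36, adjusted p = 0.578). It was 0.19 without Mogat1 ASO replicate 1 (adjusted p = 0.257) and 0.058 without control ASO replicate 3 (adjusted p = 0.826).

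Probe 2 of Rnaseh1 read 6.42, 6.81, 6.96 and 6.69 in Mogat1 ASO livers and 6.84, 6.92, 6.79 and 6.94 in control livers. Its difference was -0.15 (SE 0.13, 95% interval -0.44 to 0.14, adjusted p = 0.497). Within the same array, probe 2 moved by -0.26 relative to probe 1 (SE 0.06, no overlap, exact two-sided permutation p = 0.0286). That contrast was chosen with the one for Stab1, and both had an adjusted p = 0.0286. The mean of both probes differed by -0.020 (adjusted p = 0.929).

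Xrn2, the nuclear exonuclease that degrades the fragment downstream of an RNase H1 cut, was not detected by any of its 3 probes on any array. Their detection p-values ranged over 0.0652 to 0.438, 0.0791 to 0.405 and 0.418 to 0.817, so no direction is given.

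**Figure D3:**
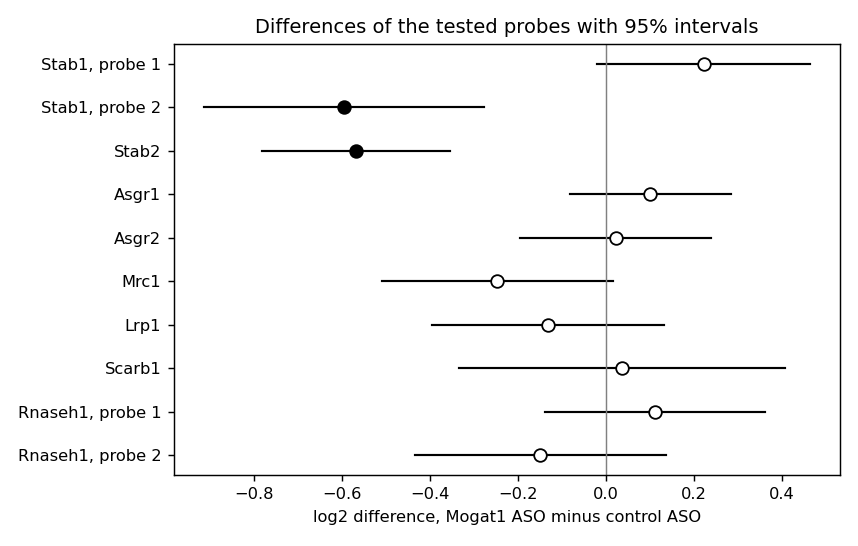
Log2 difference, Mogat1 ASO minus control ASO (horizontal axis), of each tested probe, with its 95% interval from the limma fit (line). Filled points have an adjusted p under 0.05. Stab2 at -0.57 and probe 2 of Stab1 at -0.60 are filled, and the intervals of all other probes include 0.

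The other genes of the route from the cell surface to RNA decay were read from 5 lists. Of 20 further surface receptors that bind oligonucleotides or other polyanions, or share ligands or cells with those that do, 17 were tested, 1 rose and 2 fell, with a median log2 difference of -0.099. The shares over all genes tested were 7.14% higher and 6.12% lower. The rise was Lyve1 and the larger fall was Cd163, both given above and both also on a marker list. Lrp5, a co-receptor of Wnt signalling, fell by 0.51 on the log2 scale (SE 0.11, adjusted p = 0.0158). Cd36, Olr1 and Itgam were not detected on any array.

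Of 24 genes of endosomal transport 22 were tested, 1 rose and 1 fell, with a median of -0.037. Over all genes tested, 7.14% rose and 6.12% fell, so these counts are near the background. Chmp4b, a subunit of the ESCRT-III membrane-cutting complex, rose 1.34-fold (SE 0.10, adjusted p = 0.0168), and Lamp2, a lysosomal membrane protein gene, was 1.19-fold lower (SE 0.07, adjusted p = 0.04). No rise was called when Mogat1 ASO replicate 3 or 4 or control ASO replicate 3 was left out, and no fall when any of Mogat1 ASO replicates 1, 3 and 4 or of control ASO replicates 2, 3 and 4 was. Median scaling ended both calls, and the fall of Lamp2 was also lost with no filter on dim probes or no variance trend.

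Among genes of proteins that bind oligonucleotides inside the cell, 16 of 22 were tested and none was called, with a median of -0.0099. Over all genes tested 13.3% were called, so with 16 genes this count alone does not set the list apart. The brightest were P4hb, protein disulfide isomerase (difference -0.12, SE 0.10), and Ppia, cyclophilin A (0.12, SE 0.07). Without Mogat1 ASO replicate 2, 1 gene of this list was called lower, and 1 was called higher where probes were averaged by gene. Ssb, Cct5, Nono and Xrcc5 were not detected on any array.

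A further list held 21 genes of RNA cleavage and decay, namely RNase H2, 5′ exonucleases, the exosome and decapping. Of these, 18 were tested, none rose and 2 fell, with a median of 0.0071. Rnaseh2c, a subunit of RNase H2, was 1.42-fold lower (SE 0.15, adjusted p = 0.044), and Skiv2l, the helicase of the cytoplasmic Ski complex, 1.33-fold lower (SE 0.11, adjusted p = 0.0403). These calls lay close to the threshold, and over all genes tested 7.14% rose and 6.12% fell. No gene of the list was called without Mogat1 ASO replicate 3 or 4 or control ASO replicate 3 or 4, and 1 was without control ASO replicate 1 or 2. Neither was called with median scaling, with no filter on dim probes or with no variance trend. Where probes were averaged by gene 1 gene of the list was called lower, and with array weights 3 were. Skiv2l had 2 tested probes and Rnaseh2c 1.

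The list of lysosomal and other nucleases and related enzymes, not all of which act on DNA, had 11 of 16 tested and none called, with a median of 0.15. Rnaset2b, a lysosomal ribonuclease gene and the brightest, differed by 0.23 (SE 0.09, adjusted p = 0.108), and Dnase1l3, a secreted nuclease gene that is also on the endothelial list, by 0.11 (SE 0.10, adjusted p = 0.532). All 11 differences were above 0, from 0.021 (Rexo2) to 0.60 (Dnase2a), beside a median of -0.004 over all genes tested. Whether the shared direction sets the list apart from other genes was not tested. Of all genes tested, 7.14% were called higher and 6.12% lower, so no call among 11 is near the background. Without Mogat1 ASO replicate 1 or 2 or control ASO replicate 1 or 4, 1 gene was called higher, as with robust variance estimation or probes averaged by gene, and 3 were with array weights.

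**Figure D4:**
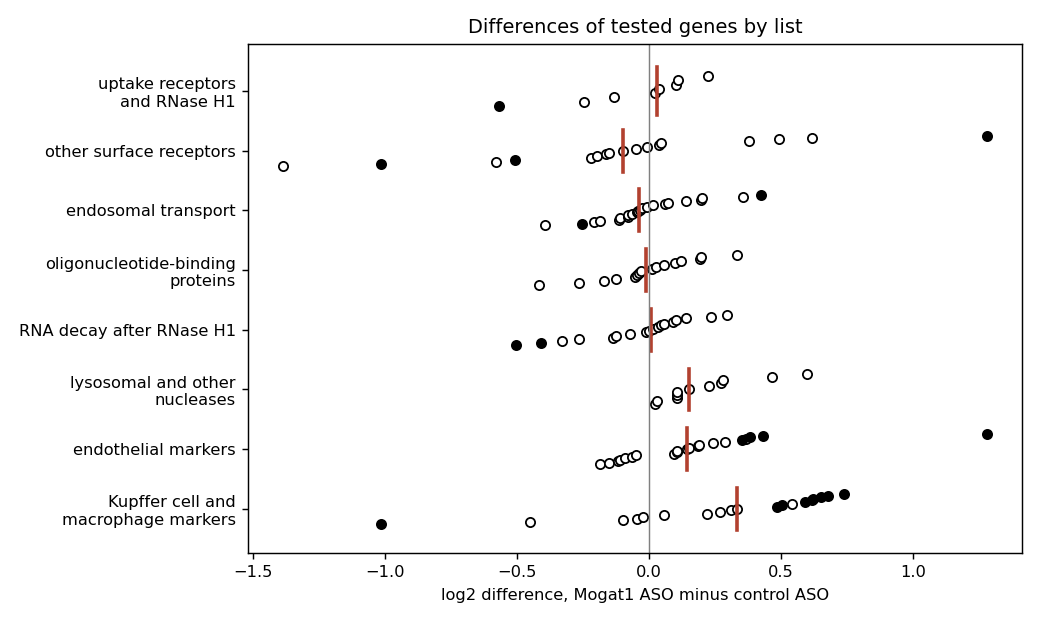
Log2 difference, Mogat1 ASO minus control ASO (horizontal axis), of each tested gene (points, filled where the adjusted p is under 0.05) in the 8 tested uptake and cleavage genes, the 5 lists of the oligonucleotide route and 2 marker lists, with each list's median as a red bar. The medians of the surface, endosomal, binding and decay lists lie between -0.099 and 0.0071, and that of macrophage markers lies at 0.33.

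Markers of other liver cells were read from 3 further lists. Of 15 stellate cell and fibroblast markers 10 were tested, and Reln was lower (1.33-fold, SE 0.11, adjusted p = 0.0295) while Dcn, the bright decorin gene, differed by 0.089 (SE 0.13). The call for Reln ended when any of Mogat1 ASO replicates 2 and 4 and control ASO replicates 1, 2 and 3 was left out, with no filter on dim probes and with no variance trend, and 2 genes were called lower without Mogat1 ASO replicate 1. None of 5 tested biliary markers (Sox9 0.26, SE 0.26, and Spp1 0.30, SE 0.17) and none of 6 tested T, B and NK cell markers (Cd79b 0.19, SE 0.18, and Lck 0.41, SE 0.13) was called. Median log2 differences were -0.13, -0.017 and 0.23 in these lists. The shares over all genes tested were 7.14% higher and 6.12% lower, so with 10, 5 and 6 genes tested these counts are near the background.

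The target of the ASO could not be read on these arrays. Its 1 probe never reached a detection p-value under 0.814, with levels of 4.36 to 4.49 in Mogat1 ASO livers and 4.41 to 4.43 in controls, so the labels could not be checked against it. Median non-normalized intensity was 88.75 to 110.2 in Mogat1 ASO arrays and 84.25 to 112 in control arrays, and 15788 to 16944 probes were detected on Mogat1 ASO arrays and 15819 to 16864 on control arrays.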

How the data were processed

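Liver RNA of 8 mice was measured, 1 bead array each; extraction and hybridization batches are not named in the labels or headers. The authors' deposited table gives every probe, per the file headers, a detection p-value beside its non-normalized intensity. A second deposited table holds processed intensities of the same probes. Its values fall below 0 and its medians are 5.75 to 5.78, and no source names the software, so it served as an alternative. Background was corrected (normexp, negative controls inferred from detection p-values) and values were quantile normalized and logged (log2, offset 16) with neqc in limma 3.58.1 (R 4.3.3). Probes detected on at least 4 of 8 arrays were fitted with lmFit and eBayes (variance trend, two-sided, threshold 0.05). The number of arrays limits the precision. Tables were read with the R package data.table (version 1.17.8), and figures drawn with matplotlib 3.10.9 in Python 3.11.15. Steps were tested on simulated data. There, 200 of 16487 probes were changed. Of these, 53.7% of probes changed 1.5-fold and 86.6% of probes changed 2-fold were called, with 6 false calls among 165. In the data 2078 probes were called, far more than were changed in the simulation. The adjustment was thus stricter there, and these percentages do not give the share of real changes recovered. A change near 1.5-fold could go uncalled in the simulation.

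Symbols were updated through RefSeq (GRCm38.p6, names only): 27740 probes were current, 8037 updated, 122 ambiguous and 9382 unmatched. The genes, the lists and the contrasts were chosen with earlier results of these data known; the lists are those of the surface, endosomal, binding, decay and nuclease genes and 7 sets of cell markers. Named beside the 10 genes and Mogat1 were up to 4 called genes per list, by size, filled to 2 with the brightest. Some uncalled endothelial and macrophage markers were named as well. Groups share replicate numbers 1 to 4 in the labels, which do not say what a number marks. Each array read a separate mouse, so p-values set the group difference against the variation between mice and arrays together. Alternatives changed the background, offset, scaling, source, filter, variance model, probe rule, replicate block or left out 1 array.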

Additional observations from a re-analysis of the deposited data

Results flagged for a closer look

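In 3 of 20 groups of 4 arrays tested, 1 array lay far from the other 3, where chance flags about 1 group in 20. The second probe of Stab1 read 7.50 in Mogat1 ASO replicate 4, against 8.01 to 8.11 in the other Mogat1 ASO livers. Asgr2 read 10.38 in Mogat1 ASO replicate 1, against 10.02 to 10.05 in the others. The first probe of Rnaseh1 read 7.16 in Mogat1 ASO replicate 1, against 7.46 to 7.48 in the others.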

How the results depend on the processing

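The count of called genes among the 8 was 1 lower and 0 higher under every alternative tried, except that Mrc1 joined Stab2 (2 lower) without Mogat1 ASO replicate 1, a range of 1 to 2 when 1 array was left out. Over all probes, 2078 were called, 1251 with median scaling, 3561 with array weights and 1149 to 3098 when 1 array was left out. Deviations of same-numbered arrays correlated at -0.03 to 0.20. With 4 arrays per group this cannot decide whether the shared replicate numbers mark pairs. With a replicate block, 1967 probes were called, Stab2 kept its call (adjusted p = 0.00879), and Rnaseh2c, Skiv2l and Lamp2 lost theirs. Differences near 0 changed sign: Asgr2 (-0.028 with median scaling, -0.022 with array weights and -0.065 to 0.058 when 1 array was left out), Scarb1 (-0.085 to 0.15 when 1 array was left out), and, with the mean of a gene's probes, Stab1 (-0.19, and -0.35 relative to endothelial markers) and Rnaseh1 (-0.020). The cause was not tested. With median scaling the endothelial marker means overlapped between the groups (change 0.15, exact permutation p = 0.143). Among the lists, lower surface receptors numbered 2, against 4 with array weights or the block, 3 without Mogat1 ASO replicate 1 and 1 with median scaling. Lower hepatocyte markers numbered 0, against 5 with array weights or without Mogat1 ASO replicate 1, 3 with the block, and 1 with median scaling, detection on all 8 arrays, robust variance or the mean of probes. The block gave 2 lower stellate markers in place of 1. A slide block was not run because the headers name no slide. Signal over background limits the set: Msr1 and Xrn2 were read at background on all arrays, as was Mogat1.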
